A study of Mus musculus with 6 samples.

Results

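The enzymes described here carry sulfur and methyl groups through the hepatocyte: the methionine cycle, the transsulfuration branch that leads from homocysteine to cysteine, and the betaine branch that remethylates homocysteine and then breaks its product down to glycine. They were read from the arrays of primary mouse hepatocytes, the metabolic cells of the liver, with and without depletion of retinol saturase (RetSat), an oxidoreductase of retinol. The list had 10 enzymes by name (Mat1a, Mat2a, Gnmt, Ahcy, Bhmt, Bhmt2, Cbs, Cth, Dmgdh and Sardh), of which 8 could be read among 19938 genes. A gene was read where a probe set was annotated with its symbol alone, and the brightest probe set over the 6 arrays stood for it. The 3 probe sets of Ahcy also carry the symbol Gm4737 and were left out by that rule. Mat2a was not analysed here because no probe set was named for it, alone or with other symbols. None of the 8 measured enzymes was dim, in the sense of a mean log2 value under 4.33, the 40th percentile of all genes.

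The cells came from male wild-type C57BL/6J mice, by the series' design text from a single animal aged 10 weeks. After collagenase perfusion and a Percoll gradient they were seeded at 25 mM glucose. Overnight, 1 nmol of either a control siRNA (siControl) or one against RetSat (siRetSat) was delivered, and 48 h after the following change of medium the RNA was harvested. Both groups thus share the transfection reagent and the medium, and the RNA of 3 transfections per group was read on Affymetrix Mouse Gene 1.0 ST microarrays. The p-values measure the spread between transfections and not between mice, and with a single siRNA against RetSat among these samples, its other effects and those of losing RetSat cannot be told apart. On the target itself, Retsat, the siRetSat mean was 21.8% of the siControl signal, a log2 difference of -2.20 (95% interval -2.44 to -1.96, adjusted p = 0.000112 from limma). Array medians lay between 4.29 and 4.50 on the log2 scale and precision is limited by having 6 arrays.

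In the methionine cycle, methionine adenosyltransferase joins methionine to ATP and so makes S-adenosylmethionine, the methyl donor of the cell. Methyltransferases pass the methyl group on, the product S-adenosylhomocysteine is split to homocysteine, and homocysteine is either methylated back to methionine or committed to cysteine through transsulfuration. Liver is known for running all these branches at once, including the use of betaine, a product of choline, as a methyl donor that most other tissues do not use.

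The regions in front of 3 of these genes are shown because they bear on how the members are arranged and on 2 classes of regulator. These are glucose-responsive factors, which the study concerns, and retinoid-responsive factors, added because RetSat acts on retinol. The paper reports that the putative retinoid product of RetSat did not rescue the effects of its depletion. RefSeq (GRCm38.p6) gives windows of equal length around the start for 8 of the 10 listed genes, all but Mat1a and Cth. The hexamer CACGTG is an E-box, a part of the carbohydrate response element and not the whole, and is the same on both strands. It was in 1 of these 8 windows, that of Cbs, and in 7.15% of 32851 windows of all genes. The hexamer AGGTCA is likewise only a part of the elements that nuclear receptors such as the retinoid X receptor read. It was found on either strand in 4 of the 8, those of Ahcy, Bhmt, Gnmt and Sardh, and in 16.3% of all windows. The heptamer GATGCAA, the core of the element shared by C/EBP and ATF factors, was in none of the 8 and in 2.53% of all windows. No motif of the 3 is contained in another. A match is a description of letters and does not show binding.
The stretch before Cbs is shown with CACGTG in capitals (chr17:31637234-31637455, minus strand, 222 bases up to the annotated gene):
Cbs: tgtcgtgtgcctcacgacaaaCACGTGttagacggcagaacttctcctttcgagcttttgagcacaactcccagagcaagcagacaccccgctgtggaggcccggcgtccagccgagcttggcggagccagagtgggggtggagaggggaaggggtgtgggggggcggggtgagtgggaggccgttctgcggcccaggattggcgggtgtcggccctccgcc
The stretch before Bhmt holds AGGTCA 3 times on the printed strand, again in capitals (chr13:93637759-93638008, minus strand, 250 bases):
Bhmt: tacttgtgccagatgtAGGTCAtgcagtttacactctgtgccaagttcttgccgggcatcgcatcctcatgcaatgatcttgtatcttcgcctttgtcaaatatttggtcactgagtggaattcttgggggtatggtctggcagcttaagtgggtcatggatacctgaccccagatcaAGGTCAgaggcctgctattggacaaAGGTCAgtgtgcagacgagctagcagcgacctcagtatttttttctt
Bhmt, Bhmt2 and Dmgdh lie in a row on chromosome 13 with no other protein-coding gene between them, and Bhmt2 and Dmgdh are read in opposite directions from starts only 133 bases apart. That gap is shown on the Dmgdh strand, with nothing marked (chr13:93674303-93674435, plus strand):
Bhmt2-Dmgdh: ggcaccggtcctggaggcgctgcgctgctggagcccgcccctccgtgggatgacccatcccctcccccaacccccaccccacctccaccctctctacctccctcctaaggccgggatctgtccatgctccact

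The difference that passed the test lay in transsulfuration. Of the 8 measured enzymes, 1 was lower in siRetSat, Cth, none was higher, and 7 missed the threshold of limma (adjusted p under 0.05). Over all genes tested, 1.66% were called lower, 1.91% higher and 3.56% in either direction, so that a single call among 8 is more than this share but rests on 1 gene. The median log2 difference was -0.082 over the 8 enzymes and 0.0033 over all genes. Lower values were seen for 6 of the 8 and higher values for 2, counted by sign alone. In RNA of whole wells, fewer cells of a type and less RNA per cell cannot be told apart.

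Cth (cystathionine gamma-lyase) releases cysteine from cystathionine in the last step of transsulfuration. Its log2 values were 9.57, 9.50 and 9.53 on the 3 siControl arrays and 9.08, 8.94 and 8.98 on the 3 siRetSat arrays. No siRetSat array reached the lowest siControl array, and the gap between the groups was larger than the spread within either. The means were 9.53 ± 0.035 and 9.0 ± 0.072 (SD, n = 3 each), a log2 difference of -0.53 (standard error 0.084, 95% interval -0.73 to -0.34, adjusted p = 0.0150 from limma). This left 69.1% of the control signal. The size barely depended on any single array, at -0.57 to -0.50 when each was left out, but the call did. It passed without siControl 1 and without siRetSat 1, and did not without siControl 2 (adjusted p = 0.0783), siControl 3 (0.0647), siRetSat 2 (0.0902) or siRetSat 3 (0.0632), all from limma.

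Cbs (cystathionine beta-synthase) condenses homocysteine with serine, the step that commits sulfur to cysteine. Log2 values of Cbs stood at 8.60, 8.55 and 8.69 in siControl and 8.37, 8.19 and 8.19 in siRetSat. The groups did not overlap here either, but the test was not passed. The log2 difference was -0.36 (standard error 0.093, 95% interval -0.58 to -0.15, adjusted p = 0.0862 from limma), from 8.61 ± 0.071 to 8.25 ± 0.10 (SD, n = 3 each). Complete separation of the groups downwards was seen for 2 of the 8 enzymes, these 2, and for 10.1% of all genes, and upwards for none and for 9.33%. With the methods' t-test and the p and fold cutoffs of the study, without adjustment, Cbs and Cth were lower and no enzyme was higher, against 3.55% of all genes lower and 7.15% in either direction. Cbs came under 0.05 with a variance trend (adjusted p = 0.0288), without dim genes (0.0470), with the replicate number as a block (0.0434) and with array weights (0.00579), all from limma. Over all genes these settings also called more, at 1078, 964, 1541 and 2905 against 710. Cbs missed 0.05 in the other 6 alternatives that keep all arrays. It passed in none of the 6 fits that left out a single array (adjusted p = 0.0564 to 0.307 from limma).

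**Figure D1:**
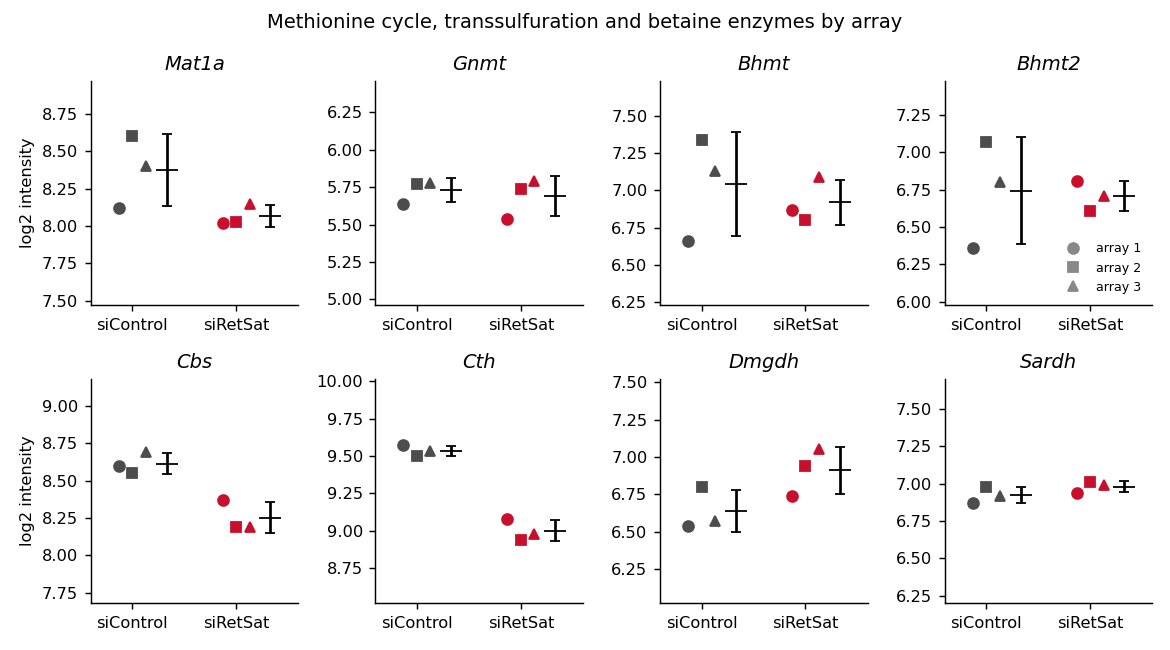
Log2 intensity of the 8 measured enzymes on each array, with circles, squares and triangles for arrays 1, 2 and 3, and bars for the group mean and 1 SD to each side (n = 3). Every panel spans 1.5 log2 units around its own centre, so distances but not levels can be compared between panels, and the groups separate fully for Cbs and Cth.

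The change of Cbs was set against that of Cth within each array, since they are consecutive steps. The log2 value of Cbs minus that of Cth was -0.97, -0.95 and -0.84 in siControl and -0.71, -0.75 and -0.79 in siRetSat. Thus the ratio was higher on every siRetSat array, by 0.17 on the log2 scale. The two-sided exact permutation test gave p = 0.1, the smallest that 3 against 3 arrays allow, and p = 0.3 after Benjamini-Hochberg adjustment over the 3 pairs of enzymes compared, so the test could not have passed.

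Mat1a encodes the methionine adenosyltransferase of differentiated liver. On the siControl arrays it stood at 8.12, 8.60 and 8.40 and on the siRetSat arrays at 8.02, 8.03 and 8.15. The groups overlapped, since siControl 1 lay below siRetSat 3. The log2 difference was -0.31 (standard error 0.13, 95% interval -0.60 to -0.012, adjusted p = 0.319 from limma). It was -0.43 without siControl 1 and -0.19 without siControl 2, and was called lower only when arrays were weighted by their quality (-0.46, adjusted p = 0.0120 from limma), a setting that gave siControl 1 and siRetSat 1 the lowest weights, 0.417 and 0.317.

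Gnmt (glycine N-methyltransferase) disposes of surplus S-adenosylmethionine by methylating glycine to sarcosine. Gnmt read 5.64, 5.77 and 5.78 in siControl and 5.54, 5.74 and 5.79 in siRetSat. These ranges lay almost on top of each other. The log2 difference of -0.04 had a 95% interval of -0.27 to 0.19 (adjusted p = 0.948 from limma).

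Bhmt and Bhmt2, paralogs that are methyltransferases of homocysteine, showed no difference that passed the test. Bhmt takes the methyl group from betaine, and Bhmt2 from S-methylmethionine. The log2 values of Bhmt stood at 6.66, 7.34 and 7.13 in siControl and 6.87, 6.80 and 7.09 in siRetSat. Those of Bhmt2 stood at 6.36, 7.07 and 6.80 in siControl and 6.81, 6.61 and 6.71 in siRetSat. In both genes siControl 1 was the lowest and siControl 2 the highest of all 6 arrays, and the siRetSat arrays lay between them. The log2 difference was -0.12 for Bhmt (95% interval -0.52 to 0.27, adjusted p = 0.877 from limma) and -0.033 for Bhmt2 (95% interval -0.42 to 0.36, adjusted p = 0.980 from limma). The sign turned in both without siControl 2, to 0.025 and 0.13. Within arrays, Bhmt minus Bhmt2 was 0.30 ± 0.030 in siControl and 0.21 ± 0.16 in siRetSat (SD, n = 3 each; two-sided exact permutation test, p = 0.5).

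The 3 probe sets of Bhmt did not give the same level. Of these, the 2 brighter ones had log2 differences of -0.12 and -0.047, and the third, at a mean of 3.88 over the 6 arrays and so below the bound for dim genes, one of 0.04. Averaged over the 3, the difference of Bhmt was -0.043.

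Dmgdh and Sardh, mitochondrial flavoenzymes, remove the methyl groups of dimethylglycine and sarcosine in turn and hand them to folate. Dmgdh read 6.54, 6.80 and 6.57 in siControl and 6.74, 6.94 and 7.05 in siRetSat. It leaned upwards, with siRetSat 1 below siControl 2. The log2 difference was 0.27 (standard error 0.12, 95% interval 0.0073 to 0.54, adjusted p = 0.327 from limma). Sardh read 6.87, 6.98 and 6.92 in siControl and 6.94, 7.01 and 6.99 in siRetSat, with overlapping groups. Its log2 difference of 0.057 had a 95% interval of -0.13 to 0.25 (adjusted p = 0.881 from limma). Dmgdh minus Sardh had a mean of -0.29 in siControl and -0.07 in siRetSat, which did not pass the test (two-sided exact permutation test, p = 0.2, and 0.3 over the 3 pairs). Bhmt2 and Dmgdh, whose starts are separated by the 133 bases printed above, had log2 differences of -0.033 and 0.27, and their difference was not tested.

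**Figure D2:**
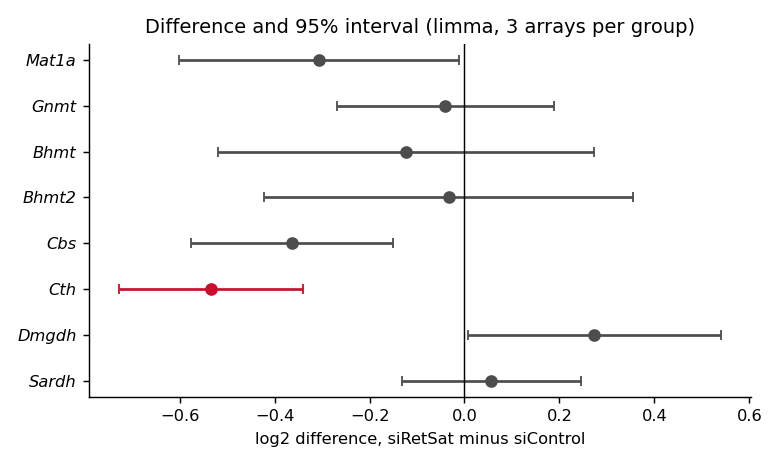
Log2 difference of siRetSat minus siControl for the 8 measured enzymes, with the 95% interval of the limma fit on 3 arrays per group, before adjustment for multiple testing. Cth in red passed an adjusted p of 0.05; the intervals of Cbs, Mat1a and Dmgdh also leave out 0 but their adjusted p-values were 0.0862, 0.319 and 0.327.

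Each enzyme was refitted with a single array left out, which shows how much of a difference 1 transfection carries. Cth stayed between -0.57 and -0.50 and Cbs between -0.42 and -0.33. Dmgdh stayed above 0, between 0.20 and 0.36, and Sardh between 0.030 and 0.085. Mat1a varied more widely, from -0.43 to -0.19. For Bhmt (-0.32 to 0.025), Bhmt2 (-0.23 to 0.13) and Gnmt (-0.09 to 0.035) the sign depended on which array was left out.

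**Figure D3:**
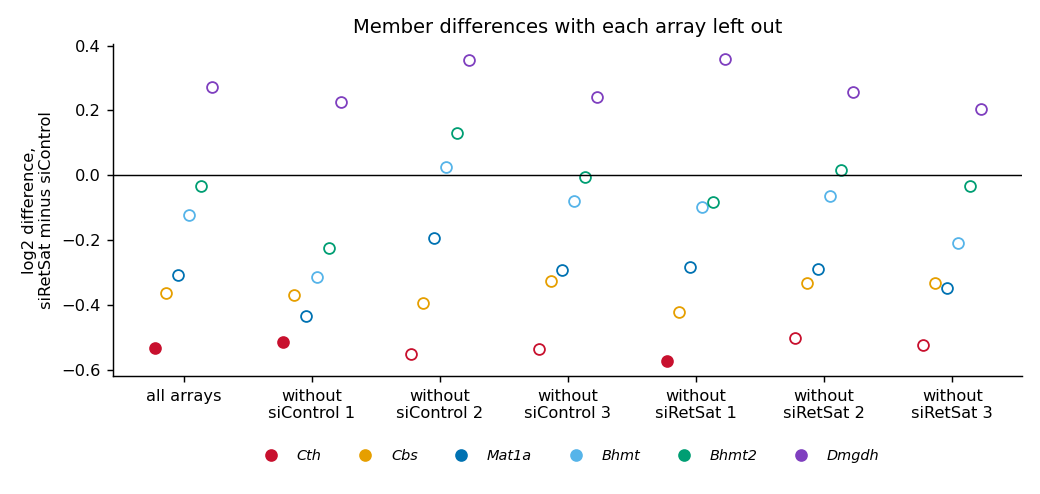
Log2 difference of 6 of the enzymes (siRetSat minus siControl, y axis) with all arrays and with each array left out in turn (x axis). Filled circles passed an adjusted p of 0.05 from limma and open circles did not; Cth is lowest in every fit and filled in 3 of 7.

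What becomes of cysteine was read from a list of 11 enzymes, all measured, of which 2 were lower, 1 higher and 8 did not pass. The list median was 0.053. Cdo1 (cysteine dioxygenase), which oxidises cysteine on the way to taurine, had log2 values of 7.61, 8.23 and 7.84 in siControl and 6.86, 6.99 and 7.21 in siRetSat. Csad, the decarboxylase that follows it on this route, went from 7.78, 7.58 and 7.79 to 7.25, 7.07 and 7.31. Every siRetSat array was thus below every siControl array for both. The log2 differences were -0.87 for Cdo1 (95% interval -1.25 to -0.49, adjusted p = 0.0284 from limma) and -0.51 for Csad (95% interval -0.75 to -0.27, adjusted p = 0.0398 from limma). Cdo1 passed in 2 of the 6 fits that left out a single array, those without siControl 1 and without siRetSat 3, and Csad in none. Neither Cdo1 nor Csad passed by the methods' t-test after Benjamini-Hochberg adjustment (adjusted p = 0.194 and 0.144). In limma both were also lost after background subtraction (adjusted p = 0.150 and 0.104), with arrays centred on their medians (0.0531 and 0.0817) and over all probe sets (0.0950 and 0.109).

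The list's member that was higher was Tst (thiosulfate sulfurtransferase, or rhodanese), which transfers sulfane sulfur. Tst rose from 7.72 ± 0.080 to 8.15 ± 0.053 (SD, n = 3 each), a log2 difference of 0.43 (adjusted p = 0.0383 from limma), with no overlap between the groups, but it passed in none of the 6 fits that left out a single array. Tst was lost too by the methods' t-test after Benjamini-Hochberg adjustment (adjusted p = 0.0745) and, in limma, with median centring (0.166) and over all probe sets (0.0987). The enzymes of glutathione synthesis, which also draw on cysteine, did not pass. Their log2 differences were -0.15 for Gclc (95% interval -0.34 to 0.038), -0.017 for Gclm (-0.25 to 0.22) and 0.093 for Gss (-0.091 to 0.28).

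Partners of the methionine cycle outside the 10 enzymes did not pass the test in any of 8 measured cases, with a median of -0.15. Pipox, the peroxisomal oxidase of sarcosine and pipecolate, had the smallest p, with log2 values of 8.17, 8.23 and 8.19 in siControl and 8.51, 8.55 and 8.55 in siRetSat. Its difference was 0.34 (95% interval 0.16 to 0.52, adjusted p = 0.0621 from limma), and it came under 0.05 in 7 of the 10 alternatives that keep all arrays. Pipox passed in none of the 6 fits that left out a single array (adjusted p = 0.0827 to 0.231 from limma). Methionine synthase (Mtr), which remethylates homocysteine with folate, and its reductase (Mtrr) did not pass. The log2 difference of Mtrr was -0.30 (95% interval -0.50 to -0.092, adjusted p = 0.143 from limma), with no overlap between groups, and that of Mtr was -0.34 (95% interval -0.69 to 0.0028, adjusted p = 0.350 from limma), with overlapping groups. Mtr came under 0.05 with the replicate number as a block (adjusted p = 0.0472) and with array weights (0.0258), and Mtrr with array weights (0.0135), all from limma. Neither Mtr nor Mtrr passed in any of the 6 fits that left out a single array. Chdh, which oxidises choline towards betaine, had one of -0.20 and Aldh7a1, which completes that step, one of 0.11.

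Among 10 measured methyltransferases of small molecules (11 listed), which spend S-adenosylmethionine, 1 was higher, none lower and 9 did not pass, with a median of 0.057. Nnmt, which methylates nicotinamide, had log2 values of 7.87, 7.14 and 7.45 in siControl and 8.49, 8.48 and 8.40 in siRetSat. Its siControl arrays were spread widely while the siRetSat arrays lay close together, and the groups did not overlap. The log2 difference was 0.97 (95% interval 0.58 to 1.36, adjusted p = 0.0209 from limma). The call held in 2 of the 6 fits that left out a single array, those without siControl 1 and without siRetSat 1. With all arrays kept, Nnmt did not pass by the methods' t-test after Benjamini-Hochberg adjustment (adjusted p = 0.173), nor in limma after background subtraction (0.131) or over all probe sets (0.0770). Pemt, the methyltransferase that makes phosphatidylcholine and is held to be a main user of S-adenosylmethionine in liver, had a log2 difference of -0.19 (95% interval -0.46 to 0.090), and Gamt, which makes creatine, one of -0.12 (-0.30 to 0.065).

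S-adenosylmethionine also feeds the polyamines, and 10 of 14 listed genes of polyamine synthesis and methionine salvage were measured. Of these, 1 was lower, none higher and 9 did not pass (median -0.017). Azin1, an inhibitor of antizyme that spares ornithine decarboxylase from breakdown, read 9.65, 9.88 and 9.77 in siControl and 9.19, 9.17 and 9.21 in siRetSat. Every siRetSat array was lower, with a log2 difference of -0.58 (95% interval -0.79 to -0.37, adjusted p = 0.0149 from limma), and of the 6 fits without a single array the call held in those without siControl 1 and without siRetSat 1. By the methods' t-test after Benjamini-Hochberg adjustment it was lost (adjusted p = 0.0643). Smox, which oxidises spermine, lay in the other direction without passing, at 7.87, 8.20 and 8.0 on the siControl and 8.70, 8.39 and 8.60 on the siRetSat arrays. The groups of Smox did not overlap, and its log2 difference was 0.54 (95% interval 0.26 to 0.82, adjusted p = 0.0542 from limma). Odc1, the decarboxylase itself, had a log2 difference of -0.24 (95% interval -0.68 to 0.19), and Mtap, which opens methionine salvage, one of 0.24 (0.0037 to 0.48, adjusted p = 0.336 from limma).

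**Figure D4:**
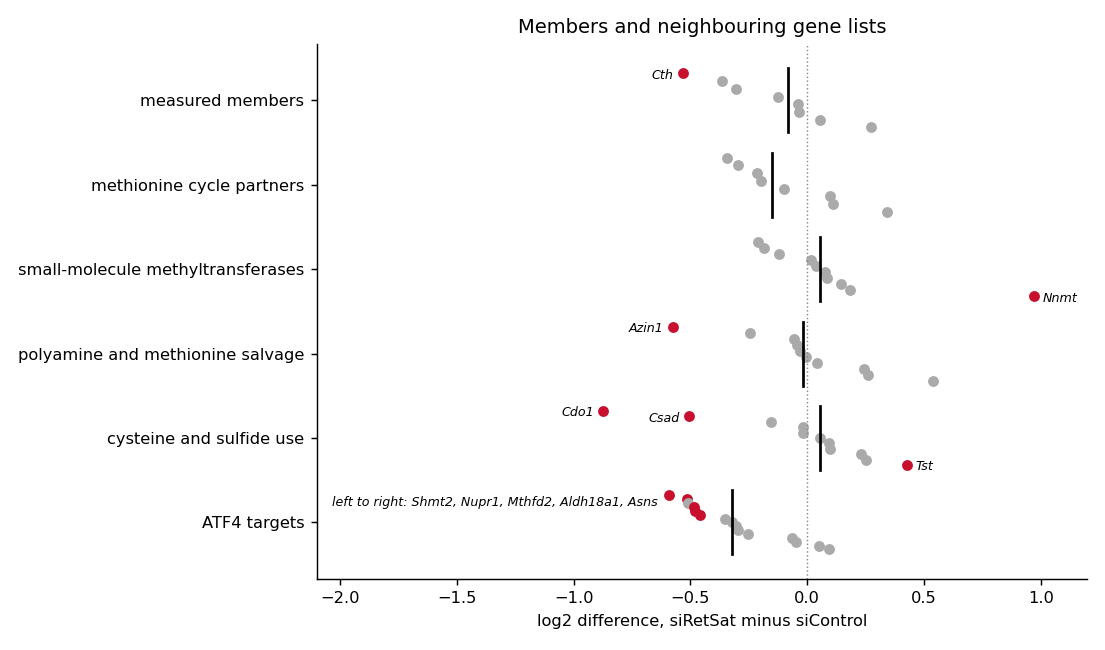
Log2 difference of siRetSat minus siControl (x axis) for the 8 measured enzymes and 5 neighbouring lists (rows), with 1 point per gene, points in red for an adjusted p under 0.05 from limma and a black line at each list's median. The largest differences among the called genes are -0.87 for Cdo1 and 0.97 for Nnmt.

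Cth is a known target of the amino acid response factor ATF4, so 15 other targets of that factor were set beside it, in a list that was drawn up with results of these arrays known and is no independent evidence of a direction. None was higher, 5 were lower and 10 did not pass, with a list median of -0.32. Over all genes 1.66% were called lower and 1.91% higher, the shares to set beside each list's count. Log2 differences of the 5 were -0.59 for Shmt2, -0.52 for Nupr1, -0.49 for Mthfd2, -0.48 for Aldh18a1 and -0.46 for Asns, next to -0.53 for Cth. Others did not pass, as Trib3 at -0.35 (adjusted p = 0.154 from limma) and Ddit3 at 0.093 (adjusted p = 0.852 from limma). Slc7a11 (0.05), Sesn2 (-0.05) and Atf5 (-0.067) did not pass either. By sign alone 13 of the 15 were lower and 2 higher. Whether ATF4 has a part in these values was not tested. Of the 5, Shmt2, Mthfd2 and Asns each passed in 1 of the 6 fits that left out a single array, and Nupr1 and Aldh18a1 in none. Of the 10 alternatives that keep all arrays, 4 ended the calls of Shmt2, Nupr1 and Aldh18a1 (the methods' t-test after Benjamini-Hochberg adjustment, median centring, background subtraction and all probe sets) and 2 those of Asns and Mthfd2 (median centring and all probe sets).

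The 5 genes whose log2 values followed those of Cth most closely over the 6 arrays were Igfbp1, Nol9, C9orf72, Ptprk and Clk3, with Pearson's r between 0.995 and 0.998, out of 11959 other genes above the bound for dim genes. These values rest on the gap between the groups, which all 6 arrays share, and are a description. Igfbp1, which encodes a secreted binding protein of insulin-like growth factors, had a log2 difference of -1.21 and Nol9 one of -0.12.

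The defining markers of hepatocytes, the labelled cell type, were present, and none of the 9 measured was dim. Their levels differed widely. Alb was brightest, at mean log2 values of 12.98 in siControl and 13.05 in siRetSat, and Cyp2e1 lowest, at 5.85 and 5.71. Of 9 measured hepatocyte markers 4 were lower and none higher: Cps1 at -0.82, Tat at -0.72, Ahsg at -0.52 and Fgb at -0.42, while Alb (0.073), Apoa1 (0.11), Hnf4a (0.10), Ttr (-0.10) and Cyp2e1 (-0.14) did not pass. The mean log2 value over these 9 markers ran from 9.62 to 9.86 in siControl and from 9.42 to 9.50 in siRetSat, so that it was lower in siRetSat along with Cth, Cdo1 and Csad. Its part in those results was not tested. Of 8 macrophage markers 1 was higher, Cd14 at 0.59, and 4 were dim in both groups, with a mean of 5.17 to 5.20 in siControl and 5.33 to 5.47 in siRetSat. Of 5 cholangiocyte markers 1 was higher, Sox9 at 0.45 (means of 5.18 to 5.23 and 5.20 to 5.35), of 8 stellate cell or fibroblast markers 1 was lower, Acta2 at -2.40 (5.30 to 5.51 and 5.02 to 5.58), and of 7 endothelial markers none was called (4.87 to 5.06 and 4.98 to 5.17).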

How the data were processed

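Total RNA (100 ng per sample) was amplified, labelled and hybridised by the authors. The deposited values are normalized log2 intensities for 35556 probe sets in each of 6 samples. RMA and Partek 6.6 appear in the submitters' processing notes; for the genome build, annotation version and filters, the entry is: not given in the sources used here. RMA is designed to correct background and bring arrays to a shared distribution of intensities, so a shift common to most genes may not be seen. The deposited arrays still differed, with medians from 4.29 to 4.50. Quantile-normalizing them again gave 922 calls over all genes, against 710 in the reported limma fit.

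Gene names came from GEO's annotation of the platform (21789 with 1 symbol, 1621 with several, 12146 with none), with symbols updated through RefSeq's GRCm38.p6 table (21698 matched). The brightest probe set stood for each of 19938 genes. Groups follow the sample titles. Without covariates, siRetSat was compared with siControl by lmFit and eBayes of limma 3.58.1 (R 4.3.3). P-values were adjusted over every gene by Benjamini-Hochberg, with a threshold of 0.05, and the 95% intervals were unadjusted. The fit was also run on simulated data with the spread of these genes, 200 changed genes and independent arrays. There it recovered 1.3% of changes of 1.25-fold, 39.4% of 1.5-fold, 76.7% of 2-fold and 97.8% of 4-fold, with 3.38% false calls. Recovery depends on how many genes change and on that independence, so these shares need not hold for the arrays themselves. A gene that did not pass may thus still have changed by a small fold. Ratios of paired enzymes were compared by exact permutation tests; a planned 4th pair, Mat1a with Mat2a, could not be formed. Named genes are the 10 listed enzymes, Retsat, cell type markers, and of each list those past the threshold or else the 3 with the smallest p. Gclc, Gclm, Gss, Chdh, Aldh7a1, Pemt, Gamt, Odc1, Mtap, Smox, Trib3, Ddit3, Slc7a11, Sesn2 and Atf5 are further names, picked with their values in view. The members and lists were chosen with earlier results of these data known. Tables and plots used Python 3.11.15, pandas 2.3.3 and matplotlib 3.10.9.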

Additional observations from a re-analysis of the deposited data

How the results depend on the processing

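Of 80 values for the 8 enzymes under the 10 alternatives that keep all arrays, 75 had the same direction and call as reported. Another 5 newly passed (Cbs in 4, Mat1a in 1), and none turned. The t-test, the variance trend, the block, leaving out dim genes and fitting all probe sets keep the reported log2 differences. Under these only the call could change, and averaging probe sets could move the difference of Bhmt alone. Median centring moved every difference by the same small amount, as for Sardh from 0.057 to 0.04, so it could turn no enzyme. Directions were free to turn with renewed quantile normalization, background subtraction and array weights, and did not. The count of enzymes called, 1, became 2 with a variance trend, with the replicate number as a block, without dim genes and by the methods' t-test at their cutoffs, and 3 with array weights. It ranged from 0 to 1 when single arrays, or both arrays of a number, were left out. Over all genes 710 calls became 196 by the methods' t-test after Benjamini-Hochberg, 1425 by that test at the study's cutoffs, 1078 with a variance trend, 1541 with the block, 342 with median centring, 445 with background subtraction, 329 over all probe sets and 2905 with array weights, 207 to 646 without a single array and 15 to 822 without both arrays of a number. Without a single array the log2 difference ran from -0.32 to 0.025 for Bhmt, from -0.23 to 0.13 for Bhmt2 and from -0.09 to 0.035 for Gnmt, and without both arrays of a number from -0.29 to 0.085 for Bhmt and from -0.28 to 0.18 for Bhmt2. Cth was at -0.555, -0.52 and -0.525 without both arrays numbered 1, 2 and 3 (adjusted p = 0.0225, 0.400 and 0.206 from limma). The replicate number was not treated as a pairing in the reported fit, and the sample titles do not say whether equal numbers mark a pair. Deviations from the group means correlated at 0.547, 0.0398 and 0.541 for same-numbered arrays, and siControl 2 correlated best with siRetSat 3, at 0.114. Between siControl 1 and siRetSat 3 the correlation was -0.526, and between siControl 3 and siRetSat 1 it was -0.567. Array medians went with the number, at 4.45 and 4.50 for siControl 1 and siRetSat 1. They were 4.36 on both arrays numbered 2 and 4.29 on both numbered 3. The reported fit leaves such a shared part of same-numbered arrays in the spread. The cause of the shifts between settings was not tested.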
